A study of Mus musculus with 54 samples.

Results

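The genes described here mark skeletal muscle and were chosen by name, with earlier results of these data known. Myf5, Myf6, Myod1 and Myog encode the myogenic regulatory factors. Myh3 and Myh8 encode the embryonic and the perinatal myosin heavy chain. Chrna1 encodes the alpha subunit of the muscle acetylcholine receptor, Ckm the muscle creatine kinase and Tnnt3 the troponin T of fast fibres. Each gene was read from a probe set that the platform annotation assigns to no other gene, the brightest on average where there were several. Of these 9 genes, 7 were measured, each by a single probe set, among 14104 genes measured in all. Myf6 and Myod1 were not analysed here.

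The study asked how loss of Mageb16, a gene of the melanoma antigen family, changes the differentiation of CGR8 cells, a male murine embryonic stem cell (ESC) line of strain 129. KD cells stably carried a short hairpin RNA (shRNA) against Mageb16, SCR cells carried a scrambled shRNA, and WT cells carried no construct. The KD and SCR lines were puromycin-selected pools and not single clones, made with a vector that also encodes GFP. Each line was sampled undifferentiated (day 0) and as embryoid bodies (EBs), aggregates grown by hanging drop without any lineage-directing factor named in the sources used here, at days 2, 4, 12, 15 and 22. Line and day gave 18 groups with 3 Affymetrix Mouse Genome 430 2.0 arrays in each, and all 54 arrays entered the fit. Values are RMA log2 intensities, so that 1 unit is a 2-fold difference. A probe set was called changed at an adjusted p under 0.05 in limma with at least a 2-fold change.

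Skeletal muscle forms from somitic mesoderm. Myf5, Myf6 and Myod1 commit progenitors to the muscle lineage, and Myog then drives their differentiation into fusing myocytes. These basic helix-loop-helix factors pair with E proteins, bind E-boxes and act with MEF2 factors on the genes of the sarcomere, the neuromuscular junction and muscle energy supply, while ID proteins sequester the E proteins. Embryonic and perinatal myosins are the isoforms of newly formed fibres, and Ckm marks more mature ones. Cardiac muscle shares much of the contractile apparatus but does not use the myogenic regulatory factors, so a sarcomere gene alone does not tell the striated muscles apart.

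The bases before the start of transcription are shown for Myog, Myh8 and Chrna1, a regulator, a myosin and a receptor subunit of the set whose windows hold the E-boxes and the MEF2 site described next. They are the 150 bases that precede the RefSeq start on GRCm38.p6, 5′ to 3′ on the strand of the gene, with E-boxes and the MEF2 site in capitals.
Myog (chr1:134289854-134290003, plus strand): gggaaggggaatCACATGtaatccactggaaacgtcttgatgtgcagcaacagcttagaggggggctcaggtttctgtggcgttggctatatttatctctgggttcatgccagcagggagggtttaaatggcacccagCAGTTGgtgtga
Myh8 (chr11:67276974-67277123, plus strand): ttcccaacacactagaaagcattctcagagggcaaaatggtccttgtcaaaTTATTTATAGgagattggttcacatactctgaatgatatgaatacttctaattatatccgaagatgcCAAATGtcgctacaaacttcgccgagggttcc
Chrna1 (chr2:73580339-73580488, minus strand): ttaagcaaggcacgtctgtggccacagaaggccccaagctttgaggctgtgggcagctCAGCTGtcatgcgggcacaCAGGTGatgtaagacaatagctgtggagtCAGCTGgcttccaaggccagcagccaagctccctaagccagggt

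An E-box was searched as CANNTG and a MEF2 site as YTAWWWWTAR (Y for C or T, W for A or T, R for A or G). The windows had 300 bases (250 before and 50 after the start). Both motifs read the same on either strand, and CAGCTG is a form of E-box. Near matches were not counted, such as ctatatttat in the Myog window, which departs from the MEF2 pattern in its last letter. Promoters of 6 of the 7 measured genes were matched by symbol in the RefSeq table, those of Myf5, Myog, Myh3, Myh8, Chrna1 and Ckm. Myog held E-boxes from -138 to -133 and from -12 to -7. Chrna1 held 3 E-boxes from -92 to -39, of which 2 were CAGCTG. Myh8 held E-boxes from -32 to -27 and from 7 to 12, and a MEF2 site from -99 to -90. Myh3 had 1 E-box and Ckm 1 CAGCTG, and in the Myf5 window the letters CANNTG did not occur. An E-box was in 5 of the 6 windows, against 72.3% of 32851 promoters of the same length, CAGCTG in 2 of 6 against 16.3%, and a MEF2 site in 1 of 6 against 3.19%. The matches are a description of these windows.

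**Figure D1:**
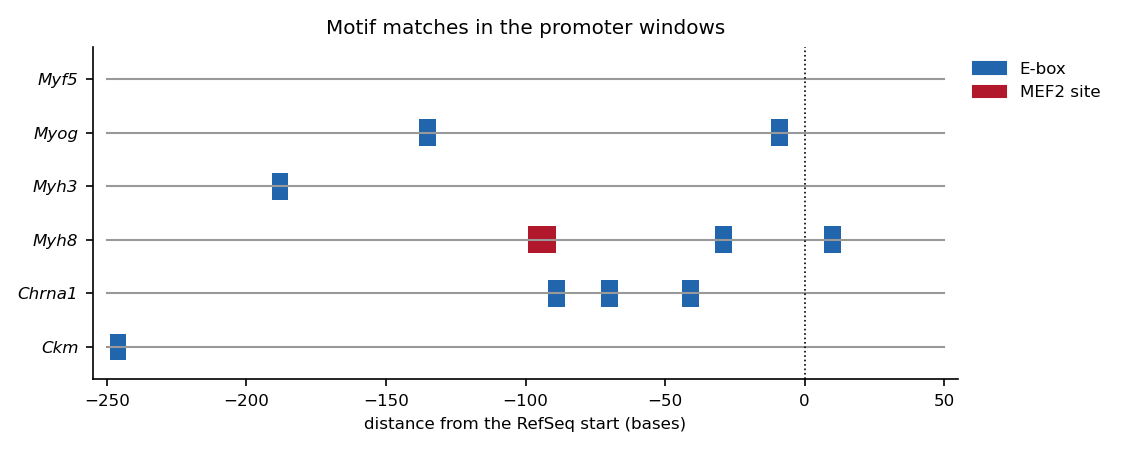
Motif matches in the promoter windows of the 6 genes with a RefSeq promoter. Each grey line is a window from 250 bases before to 50 bases after the start (x axis, distance in bases; dotted line, start), with E-boxes in blue and the MEF2 site in red. The 3 E-boxes of Chrna1 lie within 92 bases of the start, and the only full match to the MEF2 pattern searched is in Myh8.

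The targeted gene followed the labels. Mageb16 was at 7.03, 7.43 and 6.89 log2 in 22-day KD EBs, against 9.75, 9.36 and 9.52 in SCR EBs and 9.39, 9.31 and 9.38 in WT EBs, and the difference of KD from SCR was -2.43 (SE 0.168, adjusted p = 6.13e-16). Its level varied by day. KD EBs read 4.05, 3.49 and 3.75 at day 4 and 5.43, 5.39 and 4.97 at day 15, and 4-day WT EBs read 7.16, 6.98 and 6.98. Array medians lay between 5.94 and 6.26 and correlations between arrays of a group between 0.9861 and 0.9972. The labels number the arrays of a group 1 to 3 without saying whether they are separate cultures, so the p-values measure the spread between arrays, which may be technical. In 17 of the 18 groups, all but 22-day KD EBs, replicate 3 had the largest array weight and lay between replicates 1 and 2 for 36.4% to 55.2% of probe sets. In those groups replicate 1 or replicate 2 lay between the others for 16.6% to 30.1% of probe sets each. Whether replicate 3 is independent of the others was not tested. With all arrays of number 3 left out, 5 of 7 genes were still called higher in 22-day KD EBs than in SCR EBs and than in WT EBs. The share of all probe sets called in that fit was not counted. The signal of 7 pluripotency genes, summed on the linear scale, was 5142 to 5345 in 22-day KD EBs, 12330 to 15860 in SCR EBs and 14510 to 14710 in WT EBs, against 20940 to 23850 over the 9 undifferentiated arrays.

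In 22-day EBs most of the skeletal muscle genes were higher in KD than in both other lines. Of 7 measured genes, 5 were called higher in KD than in SCR EBs, Myf5, Myog, Myh3, Myh8 and Tnnt3, against 8.56% of 30939 probe sets called higher in that comparison. None was called lower, against 3.85% of probe sets. The same 5 genes were called higher than in WT EBs, against 12.4% of probe sets. The median log2 difference of the 7 genes was 1.48 from SCR and 1.57 from WT, while the median over all probe sets was -0.11 and -0.09. Between SCR and WT EBs 0 of 7 genes were called at day 22, against 7.93% of probe sets, and at an unadjusted p under 0.05 1 of 7 differed. In these bulk samples more cells of a type and more RNA per cell cannot be told apart.

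Myf5, the factor expressed first in the embryonic muscle lineage, had values of 5.49, 5.51 and 5.79 log2 in 22-day KD EBs, against 2.70, 2.78 and 2.75 in SCR EBs and 2.62, 2.58 and 2.71 in WT EBs. The 3 KD arrays lay far above all others, and SCR and WT overlapped. The difference of KD was 2.85 from SCR (7.23-fold, SE 0.127, adjusted p = 3.9e-22) and 2.96 from WT (SE 0.127, adjusted p = 1.34e-22). Over the other 51 arrays of the series Myf5 stayed between 2.18 and 3.42, the highest being a 2-day WT array. All of these 51 lay under the lower quartile of their arrays (4.23 to 4.51 over the series), near the lower end of what the array reads, so that the size of the change is not exact.

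Myog, the factor of terminal differentiation, reached 6.77, 6.66 and 7.12 log2 in 22-day KD EBs, against 3.83, 4.29 and 4.08 in SCR EBs and 4.20, 3.41 and 3.97 in WT EBs. These KD arrays put Myog between the 55.8th and 62.2nd percentile of probe sets, while the other 51 arrays all lay under their lower quartile, so that its folds are not exact either. The difference was 2.78 from SCR (6.88-fold, SE 0.169, adjusted p = 1.06e-17) and 2.99 from WT (7.95-fold, SE 0.169, adjusted p = 9.19e-19). SCR and WT EBs of day 22 had the highest Myog means outside the KD line's day 22, at 4.07 ± 0.23 and 3.86 ± 0.41 (SD, n = 3 arrays each), yet their arrays overlapped with those of the group next in order.

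The embryonic myosin Myh3 was at 7.61, 7.75 and 7.79 log2 in 22-day KD EBs, against 5.36, 5.47 and 5.66 in SCR EBs and 5.52, 4.81 and 5.26 in WT EBs. KD stood apart from both lines, which overlapped. The difference was 2.22 from SCR (4.66-fold, SE 0.143, adjusted p = 6.79e-17) and 2.52 from WT (SE 0.143, adjusted p = 9.94e-19). The perinatal myosin Myh8 had 4.40, 4.34 and 4.65 in 22-day KD EBs, against 3.00, 3.10 and 3.19 in SCR EBs and 2.88, 2.83 and 2.96 in WT EBs. It was a small signal even in KD EBs, where 2 of the 3 arrays were still under their lower quartile. The difference was 1.37 from SCR (2.58-fold, SE 0.104, adjusted p = 1.24e-14) and 1.57 from WT (SE 0.104, adjusted p = 1.24e-16). Both genes belong to a chromosome 11 cluster of closely related myosin genes, in the order Myh3, Myh2, Myh1, Myh4, Myh8 and Myh13, and cross-hybridisation between them was not tested.

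Tnnt3 of the fast-fibre thin filament had values of 5.38, 5.09 and 5.46 log2 in 22-day KD EBs, against 4.01, 3.70 and 3.77 in SCR EBs and 4.02, 3.98 and 3.92 in WT EBs. The difference was 1.48 from SCR (2.80-fold, SE 0.155, adjusted p = 9.16e-11) and 1.34 from WT (SE 0.155, adjusted p = 7.51e-10). The SCR and WT arrays of day 22 were all under their lower quartile. In a test that asks for a change beyond 2-fold (treat), the difference from WT no longer passed (adjusted p = 0.148).

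Chrna1 and Ckm missed the 2-fold minimum. Chrna1, at the postsynaptic side of the neuromuscular junction, was at 4.72, 4.45 and 4.69 log2 in 22-day KD EBs, against 3.68, 3.58 and 3.62 in SCR EBs and 3.94, 3.81 and 3.52 in WT EBs. The KD arrays lay above all others, with a difference of 0.99 from SCR (95% interval 0.76 to 1.23, adjusted p = 1.48e-09) and 0.86 from WT (adjusted p = 2.27e-08). Without KD replicate 2 or without SCR replicate 1 the difference from SCR was 1.08 or 1.02 and was called. Ckm, which buffers ATP in contracting fibres, was at 4.94, 4.81 and 5.76 in 22-day KD EBs, against 4.26, 4.43 and 4.24 in SCR EBs and 4.64, 4.56 and 4.05 in WT EBs. Its difference was 0.86 from SCR (95% interval 0.54 to 1.18, adjusted p = 1.3e-05) and 0.75 from WT (adjusted p = 6.56e-05), and 1 KD array carried much of it: without replicate 3 the difference from SCR was 0.56, and without replicate 2 it was 1.04 and called. Adjusted p alone was a rule tried after the data were seen. By it Chrna1 and Ckm were also higher in KD than in SCR and than in WT EBs at day 22. The share of all probe sets passing that rule was not counted. Without all arrays of number 3 the difference of Ckm from WT was 0.28 and did not pass it (adjusted p = 0.109).

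**Figure D2:**
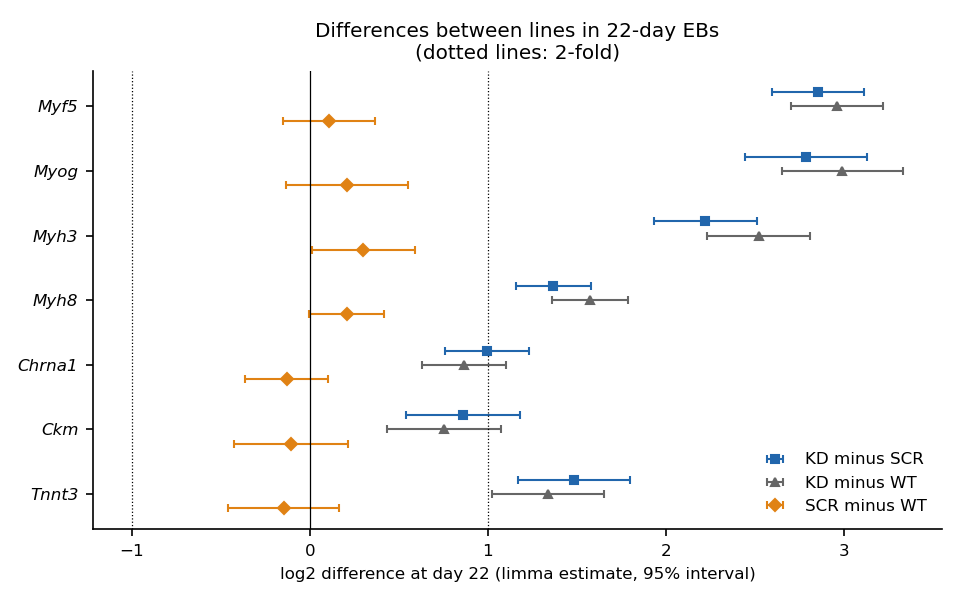
Differences between lines in 22-day EBs for the 7 measured genes (rows). The x axis is the limma log2 difference with its 95% interval, for KD minus SCR (squares), KD minus WT (triangles) and SCR minus WT (diamonds), and dotted lines mark 2-fold. The KD differences run from 0.75 for Ckm to 2.99 for Myog, both against WT, while all SCR minus WT differences lie within 0.30 of 0.

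Between KD and SCR 0 of 7 genes were called at day 0 (0.928% of all probe sets called), day 2 (3.6%), day 12 (11.1%) and day 15 (12.6%). Between KD and WT 0 of 7 were called at day 0 (1.05%), day 2 (0.666%), day 4 (0.242%), day 12 (9.09%) and day 15 (17.5%). Between SCR and WT 0 of 7 were called at day 0 (0.627%), day 2 (1.93%), day 12 (3.48%) and day 15 (6.36%). At day 15 the differences of KD from SCR ran from -0.44 for Myh3 (95% interval -0.73 to -0.15) to 0.40 for Myh8 (0.19 to 0.61). Day 4 differed, with Tnnt3 called in 2 comparisons of lines.

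**Figure D3:**
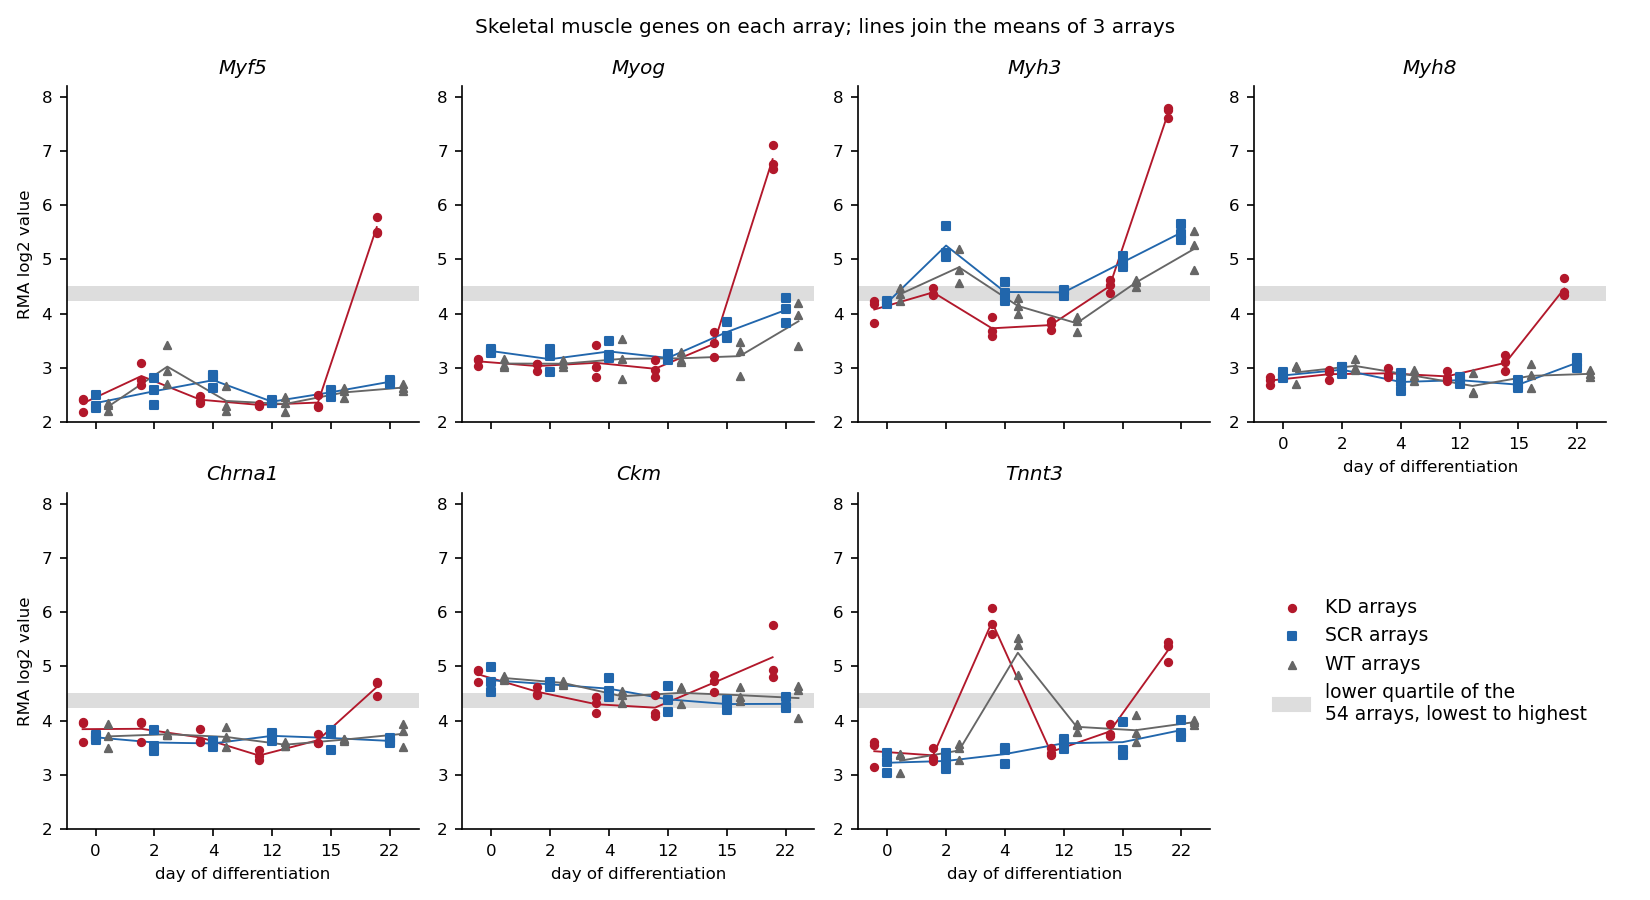
Each array's RMA log2 value of the 7 measured genes (panels) by day of differentiation, days evenly spaced, for KD (circles), SCR (squares) and WT (triangles), with lines through the means of 3 arrays and the range of array lower quartiles in grey. Myf5, Myog, Myh3 and Myh8 are highest in 22-day KD EBs, while Tnnt3 is also high in 4-day KD and WT EBs.

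Some differences had an adjusted p under 0.05 but stayed below the 2-fold minimum. For Myh3 the difference of KD from SCR was -0.86, -0.67, -0.60 and -0.44 at days 2, 4, 12 and 15 (adjusted p = 7.94e-06, 0.00015, 0.000463 and 0.00878), opposite in sign to day 22. At day 12 its values were 3.69, 3.81 and 3.87 log2 in KD, 4.32, 4.42 and 4.44 in SCR and 3.87, 3.66 and 3.94 in WT EBs, so that KD and WT overlapped and SCR lay above both. Chrna1 at day 12 was 3.34, 3.45 and 3.28 in KD EBs and 3.78, 3.62 and 3.76 in SCR EBs, a difference of -0.36 (adjusted p = 0.00816). Myh8 at day 15 was 2.95, 3.10 and 3.23 in KD EBs and 2.77, 2.62 and 2.68 in SCR EBs, with no overlap and a difference of 0.40 (adjusted p = 0.00113). Ckm at day 15 was 0.39 higher in KD than in SCR EBs (adjusted p = 0.0344). Myf5 was slightly higher at day 2 than at day 0 in WT EBs, at 3.42, 2.70 and 2.95 (difference 0.73, adjusted p = 5.46e-06). In KD EBs it was 2.78, 2.68 and 3.09 at day 2, 0.51 above day 0 (adjusted p = 0.000867). All of these arrays read Myf5 under their lower quartile, and its KD maximum came at day 22.

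Tnnt3 had an early peak of its own. In 4-day EBs its values were 6.07, 5.60 and 5.79 log2 in KD, 3.49, 3.20 and 3.46 in SCR and 4.84, 5.53 and 5.39 in WT. KD and WT were high and SCR low, with no overlap between SCR and either of them. The difference of KD from SCR was 2.44 (SE 0.155, adjusted p = 7.78e-17), 1 of 7 genes called higher against 4.92% of probe sets, and that of SCR from WT was -1.87 (adjusted p = 2.66e-13), 1 of 7 called lower against 4.5%. Against day 0 Tnnt3 rose by 2.38 in KD (1 of 7 genes, 10.9% of probe sets called higher) and by 1.99 in WT EBs (1 of 7, 11.1%), and no gene was called in SCR EBs (12.7% in either direction). By day 12 it was lower than at day 4 by 2.40 in KD (1 of 7, 4.23% called lower) and by 1.37 in WT EBs (1 of 7, 3.04%). Summed pluripotency signals were 1676 to 3306 in 4-day KD EBs, 12210 to 13810 in SCR EBs and 3002 to 6181 in WT EBs, the reverse of the order of lines for Tnnt3, and their part in the Tnnt3 values was not tested. None of the other 6 genes was called at day 4 in any comparison with day 0 or between lines.

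In KD EBs the late changes past 2-fold fell into the last interval sampled. Between day 15 and day 22 of KD EBs 5 of 7 genes were called higher, against 3.89% of probe sets, and 0 lower, against 1.23%. Myog was at 3.67, 3.20 and 3.45 in 15-day KD EBs, 3.41 below day 22 (SE 0.169, adjusted p = 6.07e-20). Myf5 rose by 3.24, Myh3 by 3.21, Tnnt3 by 1.51 and Myh8 by 1.37, while Chrna1 differed by 0.98 (adjusted p = 8.94e-09) and Ckm by 0.47 (adjusted p = 0.0214), both under 2-fold. For Tnnt3 the test beyond 2-fold did not pass (adjusted p = 0.0593). Myf5 was still at the bottom of its range in KD EBs before that, with 2.33, 2.30 and 2.32 at day 12 and 2.30, 2.28 and 2.50 at day 15. In the same interval 0 of 7 genes were called in SCR EBs (3.17% of probe sets in either direction) and 0 of 7 in WT EBs (1.76%). Smaller rises there stayed under 2-fold. Myh3 rose by 0.55 in SCR (adjusted p = 0.00397) and by 0.63 in WT EBs (adjusted p = 0.0015). Myh8 rose by 0.41 in SCR (adjusted p = 0.00349) and Myog by 0.64 in WT EBs (adjusted p = 0.00573). From day 12 to day 15 Myh3 had risen by 0.72 in KD, 0.55 in SCR and 0.75 in WT EBs, also under 2-fold. Between 15-day KD EBs and undifferentiated KD cells 0 of 7 genes were called, although 31.5% of probe sets were. Under 2-fold, Myh3 was 0.43, Tnnt3 0.36 and Myh8 0.33 higher in 15-day KD EBs (adjusted p = 0.00683, 0.0333 and 0.00496).

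Over the whole time course 5 of 7 genes were called higher at day 22 than at day 0 in KD (18.8% of probe sets called higher), 1 of 7 in SCR (13.5%) and 0 of 7 in WT (13.9% in either direction). The SCR gene was Myh3, at 5.50 ± 0.15 on day 22 and 4.20 ± 0.03 on day 0, a difference of 1.29 (SE 0.143, adjusted p = 1.87e-10). Myh3 was also 1.05 higher in 2-day SCR EBs than at day 0 (adjusted p = 4.9e-08), 1 of 7 genes against 4.83% of probe sets. Its 2-day arrays were at 5.11, 5.04 and 5.62, and without replicate 3 the difference was 0.87 and no longer called. Myog at day 22 was 0.76 above day 0 in SCR (adjusted p = 0.000142) and 0.78 in WT EBs (adjusted p = 0.000126), under 2-fold in both. The difference of Ckm at day 22 from day 0 was 0.32 in KD, -0.44 in SCR and -0.37 in WT EBs, all under 2-fold. In WT EBs, leaving out replicate 2 of day 22 brought 2 of 7 genes past the threshold against day 0, Myh3 (1.03) and Myog (1.00). The share of all probe sets called without that array was not counted. The change from day 0 to day 22 was larger in KD than in SCR for 5 of 7 genes (9.42% of probe sets called higher) and larger in KD than in WT for the same 5 (13.4%).

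The order of the 18 group means was simple for most genes. For Myf5, Myog, Myh3 and Myh8, 22-day KD EBs came first and were separated from the next group, and all 16 further neighbours in the order overlapped in their arrays. Chrna1 had 1 more gap, at the bottom, where 12-day KD EBs (3.36 ± 0.09) lay under 12-day WT EBs (3.56 ± 0.05, SD, n = 3 arrays each). Ckm had none: its mean was 5.17 ± 0.51 in 22-day KD EBs and 4.85 ± 0.12 in undifferentiated KD cells, and 1 undifferentiated SCR array read 4.99. For Tnnt3 4-day KD EBs were first (5.82 ± 0.24), followed by 22-day KD EBs (5.31 ± 0.20) and 4-day WT EBs (5.25 ± 0.36), which overlapped, and the means of the other 15 groups lay between 3.22 and 3.97. All 3 arrays of 22-day KD EBs were above the other 51 arrays for 5 of 7 genes, Myf5, Myog, Myh3, Myh8 and Chrna1, as they were for 4.23% of all probe sets.

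Across the 54 arrays the Pearson correlations between Myf5, Myog, Myh3 and Myh8 were 0.836 to 0.914. They shared the arrays and the step at day 22, and without the 3 arrays of 22-day KD EBs the same correlations were 0.113 to 0.615. Tnnt3 and Ckm correlated at 0.012 over all 54 arrays. The genes whose 18 group means were most like the mean standardised profile of the 7 were Ceacam13, Cyp3a25, Orm1, Azgp1, Defb1, Saa2, Dmbt1 and Pigr, with Pearson r of 0.9706 to 0.9754 over 18 groups and 0.399 to 0.6167 without 22-day KD EBs. Dmbt1, for example, averaged 11.06 in 22-day KD EBs and at most 3.887 in any other group. The lowest of the 3 KD arrays for Ceacam13 was 2.93, under the highest other array at 3.35. Closest to Myog alone were Azgp1, Fam3b and Saa2 (r 0.9553 to 0.9575), closest to Myf5 were Crygb, Tceal7 and Ces1c (r 0.9644 to 0.9728), and closest to Ckm were Krt17, Lce3f and Myo1a (r 0.8836 to 0.9244).

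Other genes of the contractile apparatus were also higher in 22-day KD EBs. Of 23 measured genes of the striated sarcomere, 15 were called higher in KD than in SCR EBs and 0 lower (8.56% and 3.85% of all probe sets), with a median difference of 1.79. Myl4, Mylpf, Myl1 and Tnnc1 had the largest changes of this list between lines at days 12 to 22, in KD downward for Mylpf and upward for the other 3, and Myl4 and Tnnc1 are expressed in the heart too. Myl1, a light chain of fast fibres, was at 8.67 ± 0.09 in 22-day KD EBs, 5.13 ± 0.45 in SCR EBs and 4.67 ± 0.79 in WT EBs (SD, n = 3 arrays each), 3.53 above SCR (SE 0.235, adjusted p = 1.83e-16). Myl4 was 4.22 above SCR (SE 0.21, adjusted p = 1.34e-20) and Tnnc1 3.57 (SE 0.273, adjusted p = 1.39e-14). Mylpf, the regulatory light chain of fast fibres, was 4.07 lower in KD than in WT EBs at day 12 (SE 0.166, adjusted p = 1.77e-22), where it averaged 6.17 in KD and 10.24 in WT EBs. At day 22 it read 9.95 ± 0.04 in 22-day KD EBs, 8.65 ± 0.25 in SCR EBs and 9.06 ± 0.22 in WT EBs, and undifferentiated KD cells had read 9.98 ± 0.05.

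Between day 15 and day 22 of KD EBs 8 of the 23 were called higher and 4 lower (3.89% and 1.23% of all probe sets). The genes named next were chosen after their values were seen. The fast skeletal troponin subunits Tnnc2 and Tnni2 rose by 3.70 (SE 0.159, adjusted p = 5.88e-22) and by 1.91 (SE 0.126, adjusted p = 7.74e-16), and the skeletal actin Acta1 by 2.15 (SE 0.19, adjusted p = 4.55e-12). Tnnc2 averaged 8.12 in 22-day and 4.42 in 15-day KD EBs, and its arrays of day 22 read 4.75 to 5.03 in SCR and 4.61 to 5.60 in WT EBs. Myl1 rose by 2.87, Neb and Myot by 1.13 each and Mybpc1, the slow-type myosin binding protein C, by 1.09. Mylpf rose by 3.38, back to its level in undifferentiated KD cells after the low values of days 12 and 15 (6.17 and 6.57 on average). The 4 that fell were Ttn by 1.77, Myom1 by 1.54, Ldb3 by 1.54 and Tnni1, the slow skeletal troponin I, by 1.38.

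Cardiac genes moved the other way over that week. Of 11 measured, 0 were called higher and 8 lower in KD EBs at day 22 than at day 15 (3.89% and 1.23% of all probe sets), with a median of -1.14 (all probe sets, -0.03). Myh6, the gene of the cardiac alpha myosin heavy chain, was at 9.41 ± 0.53 in 22-day and 11.27 ± 0.25 in 15-day KD EBs (SD, n = 3 arrays each). Against SCR, 7 of the 11 were still called higher at day 22 (8.56% of all probe sets), with a median difference of 2.90, led by Myl7 (6.16), Tnnt2 (5.80), Myh6 (5.10) and Tnni3 (4.59). At day 15, when 0 of the 7 skeletal muscle genes were called between KD and SCR, 8 of the 11 cardiac genes were called higher in KD and 0 lower, and 11 of the 23 sarcomere genes higher and 2 lower (7.56% and 5.04% of all probe sets). The 2 lower were Mylpf by 2.45 and the fast-fibre alpha-actinin gene Actn3 by 1.07, the second named after its value was seen. The summed cardiac signal was 3558 to 6314 in 22-day and 12420 to 15550 in 15-day KD EBs, against 259.3 to 314.7 in 22-day SCR EBs and 432 to 497.9 in WT EBs. The summed signal of the 7 skeletal muscle genes was 466.2 to 564.9 in 22-day and 98.57 to 102.8 in 15-day KD EBs, against 117.9 to 128.2 in SCR EBs and 105.2 to 134.3 in WT EBs.

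**Figure D4:**
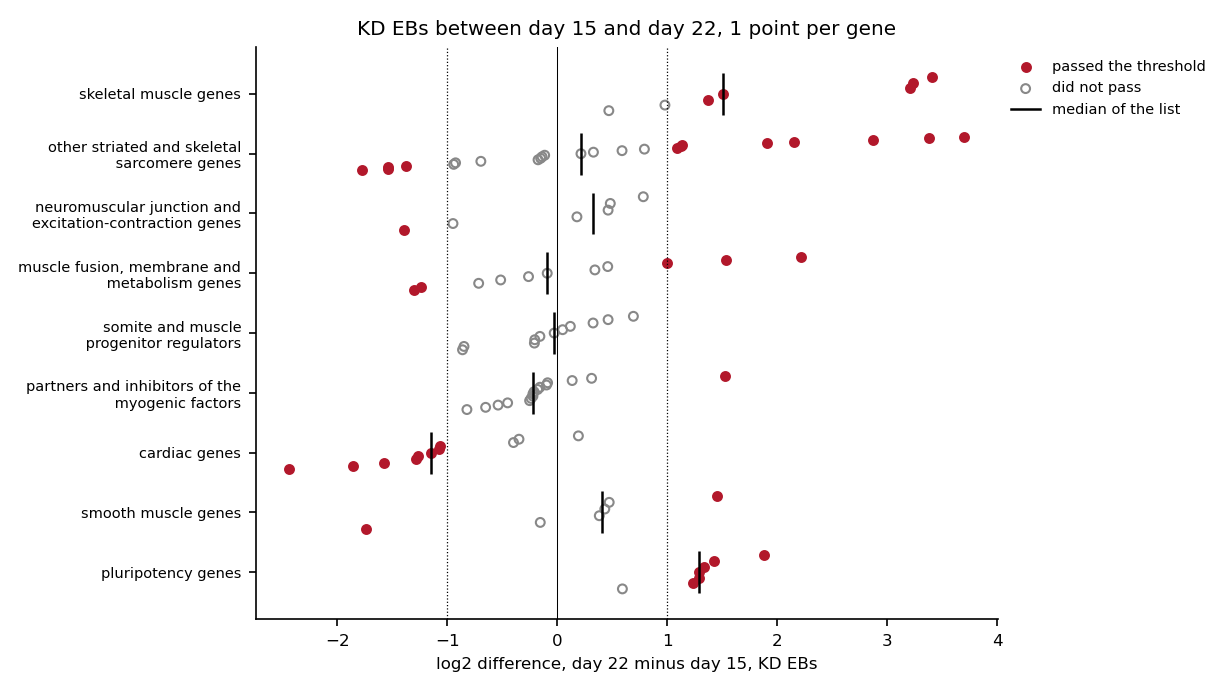
Log2 difference between day 22 and day 15 in KD EBs (x axis) for each gene of 9 lists (rows), filled where it passed the threshold, with the median of each list as a bar and 2-fold as dotted lines. The skeletal muscle genes have a median of 1.51 and the cardiac genes of -1.14.

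Of 11 measured somite and muscle progenitor regulators, 3 were called higher and 1 lower in 22-day KD than in SCR EBs (8.56% and 3.85% of all probe sets), with a median difference of -0.05. Between day 15 and day 22 of KD EBs 0 were called higher and 0 lower (3.89% and 1.23%). Met, the receptor that migrating muscle precursors use and many epithelia express, was 2.40 above SCR at day 22 (SE 0.128, adjusted p = 1.59e-19). Six4, a homeobox factor upstream of the myogenic factors, was 1.72 below it (adjusted p = 2.32e-13). Pax3, which acts upstream of Myf5 in the dermomyotome, was at 6.46 ± 0.04 in 22-day KD EBs, 7.08 ± 0.45 in SCR EBs and 5.64 ± 0.06 in WT EBs (SD, n = 3 arrays each), and its difference of KD from either line missed the threshold. Tcf15, a factor of the paraxial mesoderm, was 2.07 lower in 12-day KD than in WT EBs (adjusted p = 2.07e-16) and did not pass at day 22.

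Among 16 measured partners and inhibitors of the myogenic factors, 3 were called higher and 0 lower in 22-day KD than in SCR EBs (8.56% and 3.85% of all probe sets), with a median difference of 0.38. Mef2c, a cofactor of both skeletal and cardiac differentiation, was at 8.17 ± 0.12 in 22-day KD EBs, 6.28 ± 0.40 in SCR EBs and 5.16 ± 0.12 in WT EBs (SD, n = 3 arrays each), and it was already at 8.11 ± 0.12 in 12-day KD EBs. The E protein gene Tcf12 and the inhibitors Id2 and Id3 did not pass against SCR at day 22, with differences of 0.32, 0.48 and 0.40, and were 1.51, 1.03 and 1.11 above WT. Between day 15 and day 22 of KD EBs 1 of the 16 was called higher (3.89% of all probe sets), the inhibitor Id4, by 1.53.

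Of 6 measured genes of the neuromuscular junction and of excitation-contraction coupling, 3 were called higher in 22-day KD than in SCR EBs and 0 lower (8.56% and 3.85% of all probe sets). They were Sln (4.52), Trdn (2.15) and Casq2 (1.57), which the heart expresses as well, and Casq1, the skeletal calsequestrin, was 0.67 above SCR and not called. At day 15, 3 of the 6 had been called higher in KD than in SCR EBs and 0 lower (7.56% and 5.04% of all probe sets). Casq1 was then 2.17 above SCR (SE 0.203, adjusted p = 4.56e-12) and called. Between day 15 and day 22 of KD EBs 0 of the 6 were called higher and 1 lower (3.89% and 1.23%), Casq1, by 1.39. Of 11 measured genes of fusion, membrane and metabolism, 6 were called higher and 2 lower in 22-day KD than in SCR EBs (8.56% and 3.85%). Actc1, the cardiac actin that embryonic skeletal muscle also uses, was 3.84 above SCR, and Cav3, the muscle caveolin, 2.75. The 2 lower were the myoblast fusion gene Mymx and the fatty acid binding protein gene Fabp3, at 1.92 and 1.49 below SCR. Both read high in undifferentiated KD cells, Mymx at 9.25 ± 0.31 and Fabp3 at 11.80 ± 0.33 (SD, n = 3 arrays each). Between day 15 and day 22 of KD EBs Mymx rose by 2.22 (SE 0.297, adjusted p = 1.37e-07) and Fabp3 by 1.53 (SE 0.164, adjusted p = 6.99e-10). Mb was also called higher (1.00), while Pgam2 (-1.23) and Cox6a2 (-1.30) were called lower, and no other gene of this list was called. Of all probe sets 3.89% were called higher and 1.23% lower. Mb, Pgam2 and Cox6a2 were named after their values were seen.

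Other marker lists also differed between 22-day KD and SCR EBs, in either direction. Of 6 measured smooth muscle genes, 5 were called higher than in SCR EBs and 0 lower (8.56% and 3.85% of all probe sets), with a median difference of 2.73, and their summed signal was 6559 to 8347 in KD, 455.6 to 541.9 in SCR and 419.1 to 520.8 in WT EBs. In KD EBs the smooth muscle sum was already 5284 to 6076 at day 12 and 4885 to 5439 at day 15. Acta2, Tagln and Myh11 were 4.21, 3.92 and 3.13 above SCR at day 22, and Myocd was 1.23 above it. Between day 15 and day 22 of KD EBs Tagln was called higher (1.45) and Myocd lower (-1.74), and no other smooth muscle gene was called (3.89% and 1.23% of all probe sets). Of 7 pluripotency genes, 6 were called lower than in SCR EBs and 0 higher (3.85% and 8.56%), with a median difference of -1.47, among them Esrrb (-2.03), Tdgf1 (-1.85), Pou5f1 (-1.70) and Zfp42 (-1.47). Of the same list 6 of 7 genes were called higher at day 22 than at day 15 in KD EBs and 0 lower (3.89% and 1.23%). The part of these cell types in the skeletal muscle values was not tested.

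**Figure D5:**
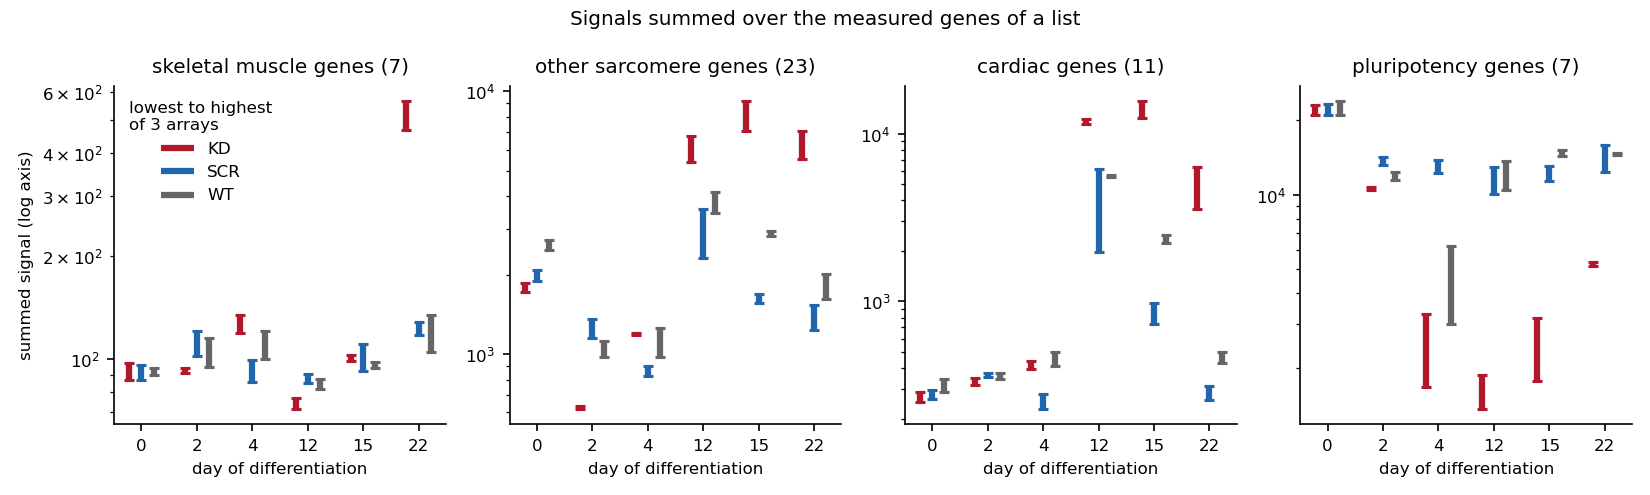
Signals summed over the measured genes of 4 lists (panels, logarithmic y axes) by day of differentiation, days evenly spaced, with a bar from the lowest to the highest of 3 arrays for KD, SCR and WT. The skeletal muscle genes reach 466.2 to 564.9 in 22-day KD EBs, while the cardiac genes are highest in 15-day KD EBs, at 12420 to 15550.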

How the data were processed

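Total RNA of 54 samples (CGR8 cells and EBs of the KD, SCR and WT lines) was labelled with a 3′ IVT kit and hybridised to Affymetrix Mouse Genome 430 2.0 arrays. The deposited values are log2 intensities made by the authors with RMA (background correction, quantile normalization, probe summary). The submitters' processing notes name Affymetrix Expression Console and Partek 6.6, and the study's methods name R Bioconductor. RMA forces arrays to 1 distribution and compresses low signals, and the number of arrays limits the precision.

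All 30939 probe sets were fitted in limma 3.58.1 (R 4.3.3), with a mean for each of 18 groups and p-values adjusted by Benjamini-Hochberg within each comparison. Calls needed both an adjusted p below 0.05 and a 2-fold difference or more. Of the probe sets, 25596 carried 1 gene symbol, 685 several and 4658 none. Promoters came from a RefSeq table (GRCm38.p6) and were scanned in Python 3.11.15. The fit was tested on simulated data.

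The members and lists were chosen with earlier results of these data known. Named genes were the members, Mageb16, up to 4 genes per other list with the largest change between lines past the threshold at days 12, 15 or 22, and the genes most like the members over group means. Alternatives covered normalization, a filter on dim probe sets, the probe set of a gene, the arrays fitted, a replicate block, the variance model, array weights, a test against 2-fold and leaving out arrays. Deviations of same-numbered arrays correlated between -0.4 and 0.501, and all 3 correlations were over 0.1 in 6 of 18 comparisons of lines on a day. The pairing has no source in the labels.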

Additional observations from a re-analysis of the deposited data

Results flagged for a closer look

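The change from day 0 to day 22 differed between lines for 5 of the 7 measured genes, by a test of the difference itself in limma. For Myf5 the change in KD exceeded that in SCR by 2.86 on the log2 scale (SE 0.18, adjusted p = 8.57e-17) and that in WT by 2.91 (adjusted p = 5.87e-17). For Myog the excess was 2.97 over SCR (adjusted p = 1.4e-13) and 2.95 over WT (adjusted p = 1.47e-13). For Myh3 it was 2.35 over SCR (adjusted p = 9.62e-13) and 2.80 over WT (adjusted p = 5.26e-15). For Myh8 it was 1.46 over SCR (adjusted p = 6.73e-11) and 1.72 over WT (adjusted p = 6.24e-13). For Tnnt3 it was 1.27 over SCR (adjusted p = 6.71e-06) and 1.16 over WT (adjusted p = 2.02e-05), and neither passed a test for a difference beyond 2-fold. Chrna1 (0.84 over SCR, 0.73 over WT) and Ckm (0.75 over SCR, 0.69 over WT) stayed under 2-fold.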

How the results depend on the processing

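Counts of called genes in 37 comparisons and 47 single values were recomputed. They kept their direction and their side of the threshold under renewed quantile normalization, median centring, the compared arrays only and trended robust variances. RMA had already quantile-normalized the deposited values. No call changed with the mean of all probe sets of a gene either. Each of the 7 genes has a single probe set, so that setting could not alter their differences. The filter for the brightest probe sets kept 18563 of them and 0 of the 7 genes, and gave no value. With the replicate block 5 genes were called in KD over SCR at day 22, and no count and no call changed. Array weights brought Chrna1 past the threshold in that comparison (1.04). The test against 2-fold left 0 calls in SCR at day 2 and at day 22 against day 0, in place of 1 each, and ended the calls of Tnnt3 in KD against WT at day 22 (adjusted p = 0.148), in KD at day 22 against day 15 (adjusted p = 0.0593) and in both differences between lines in the change from day 0. Without all arrays of number 3, tried after the data were seen, 0 genes were called in SCR at day 2. Leaving out 1 array at a time gave 5 to 7 called genes in KD over SCR and 5 to 6 in KD at day 22 over day 15, 0 to 1 in SCR at day 2 (0 without replicate 3 of day 2) and 0 to 2 in WT at day 22 (2 without replicate 2 of day 22). The difference of SCR from WT at day 22 then ran from -0.02 (-0.0183, without WT replicate 2) to 0.3767 for Myog and from -0.29 to 0.005 (without WT replicate 1) for Ckm, turning sign in both. The causes were not tested. Shares of all probe sets called were not counted under these settings. Reference signals under the array's lower quartile limit the size of the changes of Myf5, Myog, Myh8, Chrna1 and Tnnt3.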
